A study of Mus musculus with 6 samples.

Results

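The replication-dependent histone genes were taken as all genes whose symbol starts with Hist1h, Hist2h, Hist3h or Hist4h. The rule found 70 of the 55487 genes in the deposited count table, of which 67 were annotated as protein coding and 3 as pseudogenes. They comprised 6 H1, 20 H2A, 19 H2B, 12 H3 and 13 H4 genes. Most lay in the Hist1 cluster on chromosome 13 (56 genes), with 10 in the Hist2 cluster on chromosome 3, 3 in the Hist3 cluster on chromosome 11 and the single gene Hist4h4 on chromosome 6. RNA-Seq was run on rib cages of 6 mouse embryos at 16.5 dpc. The 3 control embryos (E420, E434 and E435) carry the label wild type. The study compared littermates and states for its skeletal preparations that control embryos had no cre transgene, but does not restate this for the embryos sequenced. The 3 mutants (E423, E433 and E440) were Col2-cre;Foxc1-/-;Foxc2-/-, in which floxed Foxc1 and Foxc2, a pair of forkhead transcription factor genes, are removed by a cre expressed from a Col2 promoter. Both groups are of a mixed C57B6 and Black Swiss background. Col2-cre acts in cartilage-forming cells and their descendants, and a rib cage also holds cells of other lineages, such as muscle, skin and blood.

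Replication-dependent histones package newly made DNA. The core histones H2A, H2B, H3 and H4 form the nucleosome, and the linker histone H1 binds the DNA between nucleosomes. Their genes are transcribed mainly in S phase, under NPAT at histone locus bodies. Their mRNAs usually end in a stem-loop that is bound by SLBP in place of a long poly(A) tail, although some members also give polyadenylated mRNAs, as is known from differentiating cells. The libraries were made by poly(A) selection, so the values below describe the histone RNA that this selection carried over and not the whole histone mRNA pool of the tissue.

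The stem-loop is shown first because it is the feature that sets these mRNAs apart. A search of the annotated transcripts for a stem of 6 bases that opens with GG and closes with CC around a loop of 4 bases, with at least 2 T and no G in the loop, found the element in 46 of the 70 genes (65.7%), against 0.618% of the 55380 other annotated genes. Capitals mark the 16 bases of stem and loop and lower case the bases on either side, written 5′ to 3′ on the strand of the gene, from GENCODE transcripts on GRCm38.
Hist1h1c (chr13:23739507-23739532, plus strand): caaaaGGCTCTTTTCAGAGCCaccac
Hist1h2ao (chr13:21810893-21810918, plus strand): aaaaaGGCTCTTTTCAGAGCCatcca
Hist3h2a (chr11:58955167-58955192, plus strand): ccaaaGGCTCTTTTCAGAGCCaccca
Hist1h3c (chr13:23745042-23745067, minus strand): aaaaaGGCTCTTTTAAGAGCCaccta
Hist1h4f (chr13:23551286-23551311, minus strand): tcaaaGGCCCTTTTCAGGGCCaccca
Hist1h4h (chr13:23531453-23531478, plus strand): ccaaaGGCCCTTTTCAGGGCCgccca
Hist1h4i (chr13:22040961-22040986, minus strand): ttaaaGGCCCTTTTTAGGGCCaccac
Hist1h4b (chr13:23757361-23757386, plus strand): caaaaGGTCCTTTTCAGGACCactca

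The form seen in Hist1h1c was the most frequent, with 26 genes of the H1, H2A, H2B and H3 classes and no H4 gene. H4 genes had a stem of their own: 7 of them shared the form of Hist1h4f, and Hist1h4i and Hist1h4b each shared theirs with 1 other H4 gene. In 23 genes the annotated transcript ended within 100 bases of the stem-loop, as for Hist1h2ao (31 bases) and Hist1h4f (33 bases). In another 23 it ran on by 100 bases or more, as for Hist1h1c (840 bases), Hist3h2a (1643 bases) and Hist4h4 (2445 bases). AATAAA, the letters of a polyadenylation signal, occurred in 14 of these 23 extensions, those of Hist1h1c, Hist3h2a and Hist4h4 among them, and not in those of Hist1h1e, Hist1h4i and Hist2h3c2. For the 24 genes without a match, the search says only that these letters are not in the annotated transcript. Genes whose transcript runs on past the stem-loop held 40.3% of the histone counts, genes whose transcript ends near it 28.5%, and genes with no match 31.3%. Their median log2 fold changes between mutant and control were 0.12, 0.18 and 0.19 in the same order. The order of the shares holds for these counts alone. In RSEM expected counts as CPM, both described below, genes ending near the stem-loop had mean sums of 74.9 in controls and 79.3 in mutants. Genes running on had 72.2 and 75.9 CPM, and genes with no match 43.5 and 45.6 CPM. In the controls E420 and E434, genes running on still had the highest sum.

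Library totals ran from 37853988 to 47794799 counts, with each end of a read pair counted on its own. The 70 histone genes took 5289 to 8675 of these counts per library, which is 0.014 to 0.0185%. Levels are given as CPM, counts scaled to the size of each library, always in the order E420, E434, E435 for controls and E423, E433, E440 for mutants where all are listed. Foxc1 was at 23.1, 36.9 and 24.2 CPM in controls and 3.56, 9.60 and 3.51 CPM in mutants, and Foxc2 at 1.98, 4.83 and 3.22 CPM and 0.649, 1.14 and 0.737 CPM. Both were lower in every mutant than in any control. A gene was called where its adjusted p was under 0.1 and its level at least doubled or fell to 0.5 of the control or less. By edgeR neither gene was called (adjusted p = 0.235 for Foxc1 and 0.239 for Foxc2), whereas DESeq2 called both. E434 among the controls and E433 among the mutants stood apart: the summed level of 13 early chondrocyte genes was 25713.2 CPM in E434 against 1856.7 and 1758.5 CPM in the other controls, and 9646.1 CPM in E433 against 648.9 and 622.9 CPM in the other mutants. All 13 of these genes were detected.

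Most histone RNA came from few genes. Per kilobase of exon, Hist1h2ap (30.4 CPM per kb), Hist1h1c (26.2), Hist1h2ao (25.9) and Hist1h2bc (23.3) had the highest mean levels over the 6 libraries, followed by the pseudogene Hist1h2aj (12). The places of Hist1h2ao and Hist1h2aj hold for these counts alone. In the RSEM expected counts, described below, they had 0 and 5.37 over the 6 libraries. In mean CPM, 28 members were above 1 CPM and 42 at or under it. Hist1h1c (chr13:23738808-23740367, plus strand, GRCm38), which encodes the linker histone H1.2, was at 31.8, 53.6 and 34.7 CPM in controls and at 45.9, 34.6 and 44.8 CPM in mutants. E434 was the highest and the groups overlapped. Hist1h2bc (chr13:23684199-23692908, plus strand), an H2B gene, was at 24.1, 32.6 and 24.8 CPM in controls and at 32.4, 19.7 and 28.0 CPM in mutants. It had its lowest value in E433, and the groups again overlapped. Together these genes held the largest parts of the histone counts, with 20.6 to 28.0% for Hist1h1c and 12.9 to 17.9% for Hist1h2bc. Hist1h2ap was at 7.43, 16.2 and 19 CPM in controls and at 14.9, 15.1 and 15.3 CPM in mutants. Only the control E420 was outside the range of 14.9 to 19 CPM that held the other libraries.

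**Figure D1:**
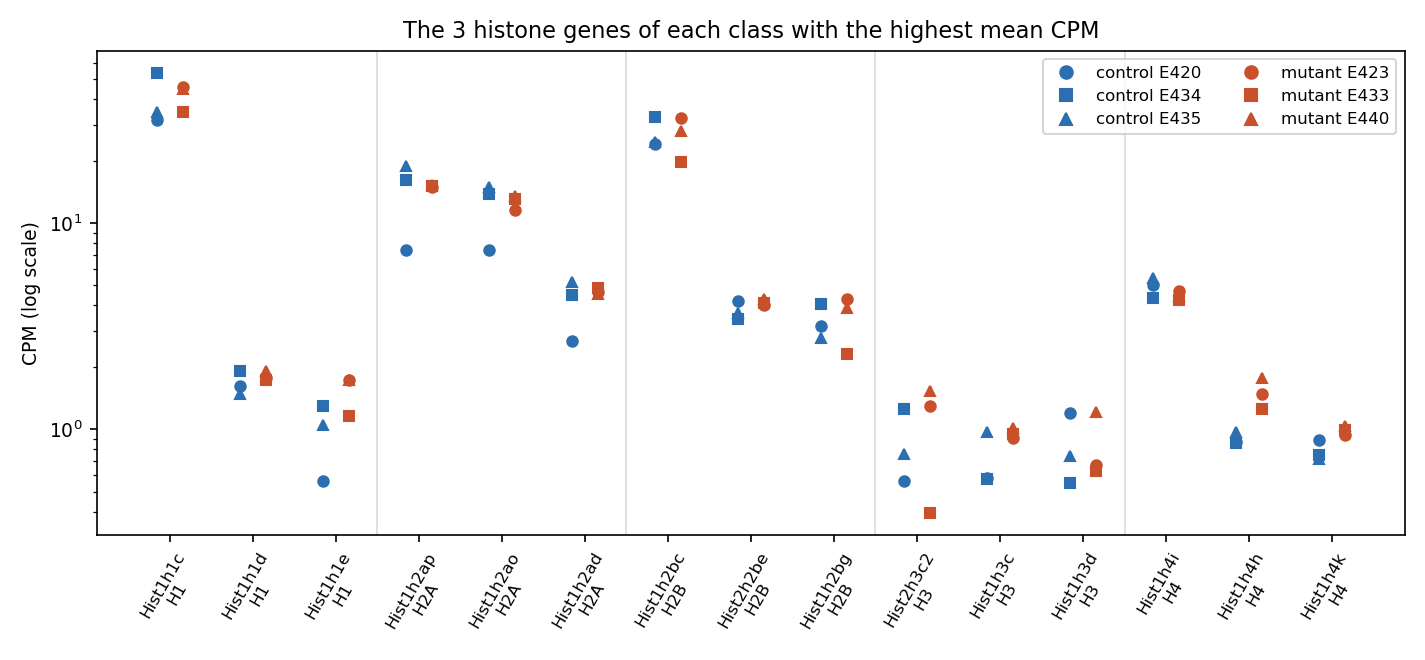
CPM on a log scale of the 3 members of each class with the highest mean CPM, with 1 point per library, controls in blue on the left and mutants in orange on the right of each gene. Points of both groups overlap for all genes shown except Hist1h4h and Hist1h4k, which were higher in every mutant.

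Many single members are hard to read on their own, because they share much of their sequence. Of the 42-base words of each member's longest transcript, which is the length of 1 read, a median of 57.8% also occurred in a transcript of another gene. The median was 1.77% for H1 genes, 76.6% for H2A, 50.7% for H2B, 62.4% for H3 and 43% for H4. Hist1h2ao and Hist1h2ap shared over 93% of their words (93.6% and 93.2%), while Hist1h1c shared 9.55% and the H2B gene Hist2h2be 0.465%. The counts as deposited keep each multi-mapping read once, at its primary alignment, whereas the RSEM expected counts share such fragments between genes by their likelihood.

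The countings placed reads on different members. Over the 6 libraries Hist1h2ao had 3318 counts and 0 expected counts, whereas Hist1h2ap had 3929 counts, of single read ends, and 8868.3 expected counts, of whole fragments. Expressed as 2 ends per fragment, the ratio of expected counts to counts was 4.51 for Hist1h2ap and 4.04 for Hist3h2a, and 1.57 for the pseudogene Hist1h2al. It was lowest for Hist1h2ao (0), Hist1h2aj (0.00958) and Hist1h2ad (0.0224). It was 1.02 for Hist1h1c, 1.17 over all members and 1.02 over all genes. For Hist3h2a, 33.0% of the exon bases overlapped exons of other genes, Trim17 and Gm44313, and reads over exons of more than 1 gene are not in the counts. Class sums are therefore given below beside single genes. A sum takes in reads placed on another member of the class, but not reads left out over exons of other genes. Exon bases of 26 members were overlapped in this way. The mean H2A sum was 55 CPM in controls and 59.7 CPM in mutants by the counts. By the expected counts it was 87.5 and 91.4 CPM.

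**Figure D2:**
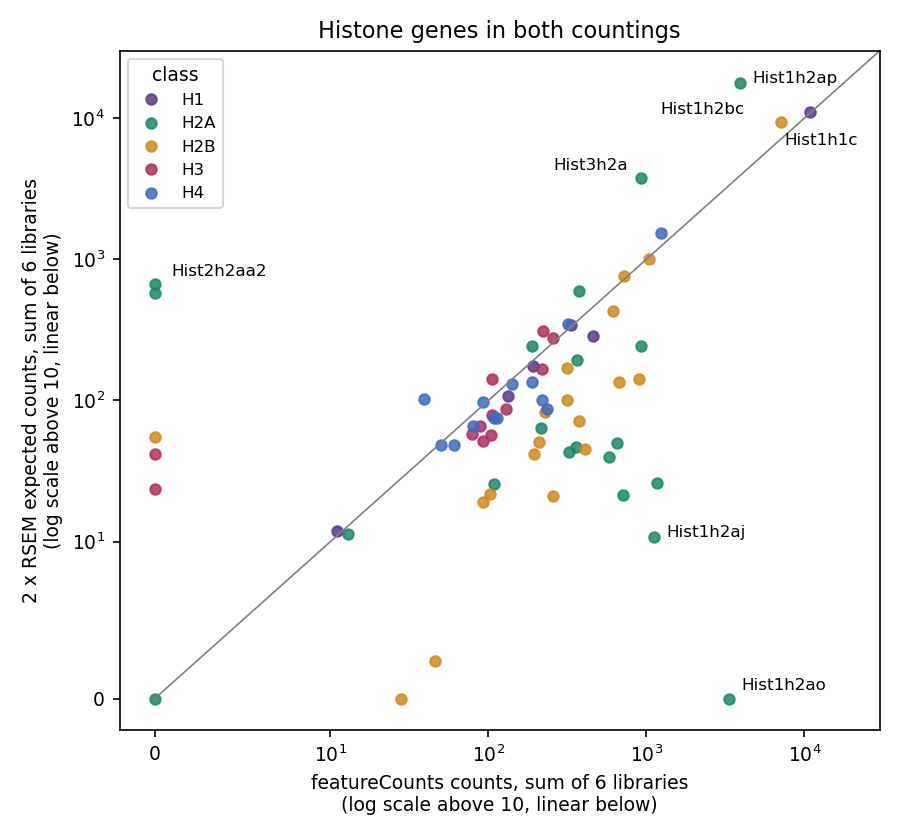
Each point is 1 of the 70 histone genes, with featureCounts counts summed over 6 libraries on the x axis and 2 times the RSEM expected counts on the y axis, both log scaled above 10 and linear below, and the grey line marks equal values. Hist1h1c lies on the line, whereas Hist1h2ap lies above it and Hist1h2ao and Hist1h2aj far below.

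The main question was whether histone RNA differed between mutant and control rib cages. It did not do so beyond the spread between embryos: the 70 genes together averaged 164.9 ± 28.6 CPM over 3 controls and 175.8 ± 20.4 CPM over 3 mutants (mean ± SD). By library the sum was 134.6, 191.4 and 168.7 CPM in controls and 190.0, 152.5 and 185.0 CPM in mutants. The lowest library was a control and so was the highest, and the groups overlapped. The log2 difference was 0.10 (exact permutation test, two-sided, p = 0.700, where 3 against 3 cannot go below 0.1). Fitted as a row of the count table by edgeR, the sum had a log2 fold change of 0.09 with a 95% interval from -0.27 to 0.46, and from the expected counts 0.07 with an interval from -0.30 to 0.45. Without the control E420 the difference was -0.04, so its direction rests on that library. In bulk RNA, the number of cells that make histone RNA and the amount per cell cannot be told apart.

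By class, H1 summed to 35.3, 57.8 and 38.2 CPM in controls and 51.0, 38.8 and 50 CPM in mutants. H2A summed to 35.8, 62.1 and 67.0 CPM in controls and 60.5, 57.9 and 60.6 CPM in mutants. H2B summed to 48.5, 56.8 and 48.0 CPM in controls and 60.2, 41.6 and 54.7 CPM in mutants. In each of these classes the mutants lay within or around the range of the controls, and E420 was far below the other libraries in H2A. H3 summed to 4.28, 4.74 and 5.01 CPM in controls and 5.84, 4.25 and 7.58 CPM in mutants. H4 summed to 10.7, 9.88 and 10.5 CPM in controls and 12.4, 10 and 12.1 CPM in mutants. For H3 and H4, E423 and E440 were above every control while E433 was at or near the lowest. No class sum passed a test (exact permutation tests, two-sided, p = 0.300 for H4 to 1 for H2A and H2B, all 1 after adjustment over the 5 classes). The 95% intervals of the log2 fold change from edgeR ran from -0.42 to 0.60 for H1, from -0.42 to 0.66 for H2A, from -0.33 to 0.39 for H2B, from -0.21 to 0.87 for H3 and from -0.15 to 0.45 for H4. A doubling of any class sum lies outside these intervals, although with expected counts the interval of H3 ran to 1.11.

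**Figure D3:**
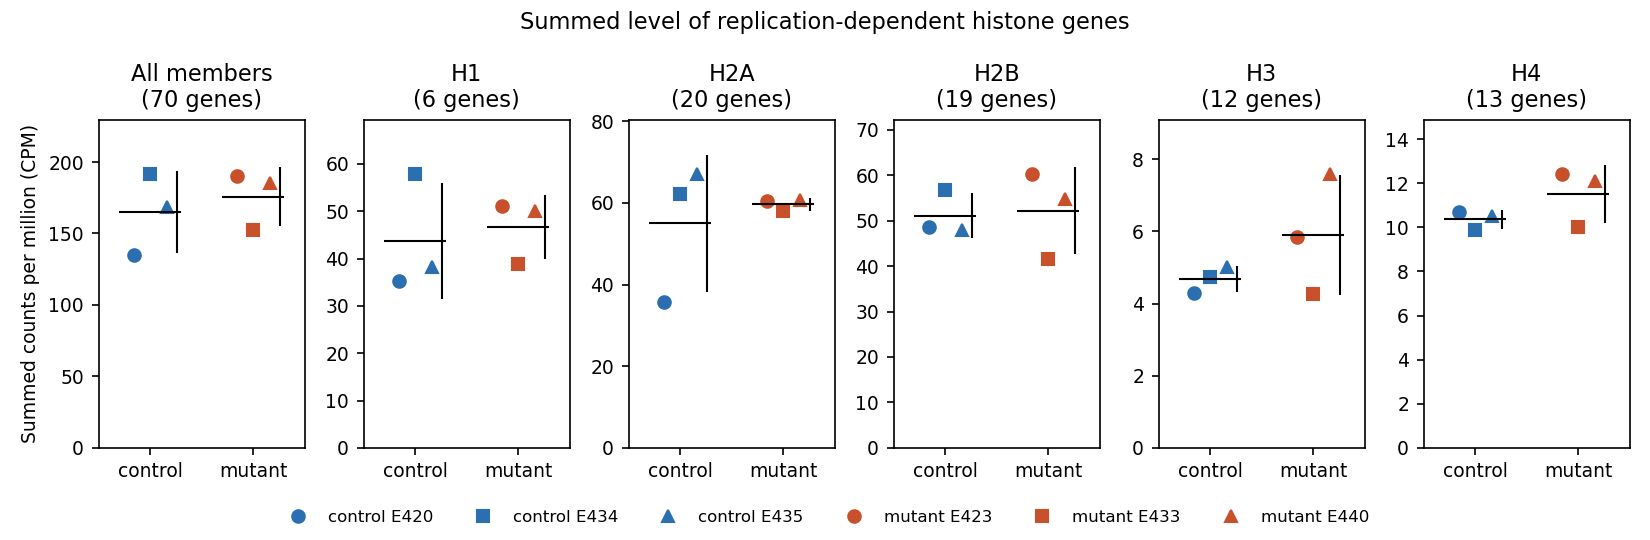
Summed CPM of all 70 histone genes and of each class, 1 point per library (symbols name the embryos), with a horizontal line at the group mean and a vertical line of 1 SD. Every panel starts at 0 and in every panel the groups overlap.

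Gene by gene, 64 of the 70 members had at least 10 counts over the 6 libraries and were tested, and the other 6 had no counts. None of the 64 passed the limits in edgeR, where 0.0639% of all 26596 genes did, and the lowest adjusted p of a member was 0.381. DESeq2, another count test, also called 0 of the 61 members it gave an adjusted p, against 2.18% of all genes. At an unadjusted p under 0.05, edgeR had 3 members higher in mutants, against 5.90% of all genes, and 0 lower, against 4.70%. Log2 fold changes ran from -0.53 for the H4 gene Hist1h4j to 1.09 for the H4 gene Hist1h4f, and 48 of 64 were within 0.5 of 0. They were above 0 for 50 of 64 members (78.1%), against 51.2% of all genes, with a median of 0.17 against 0.01. Since members share reads, these 50 are not 50 separate measurements. For 33 of the 64 the 95% interval excluded a 2-fold change either way.

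**Figure D4:**
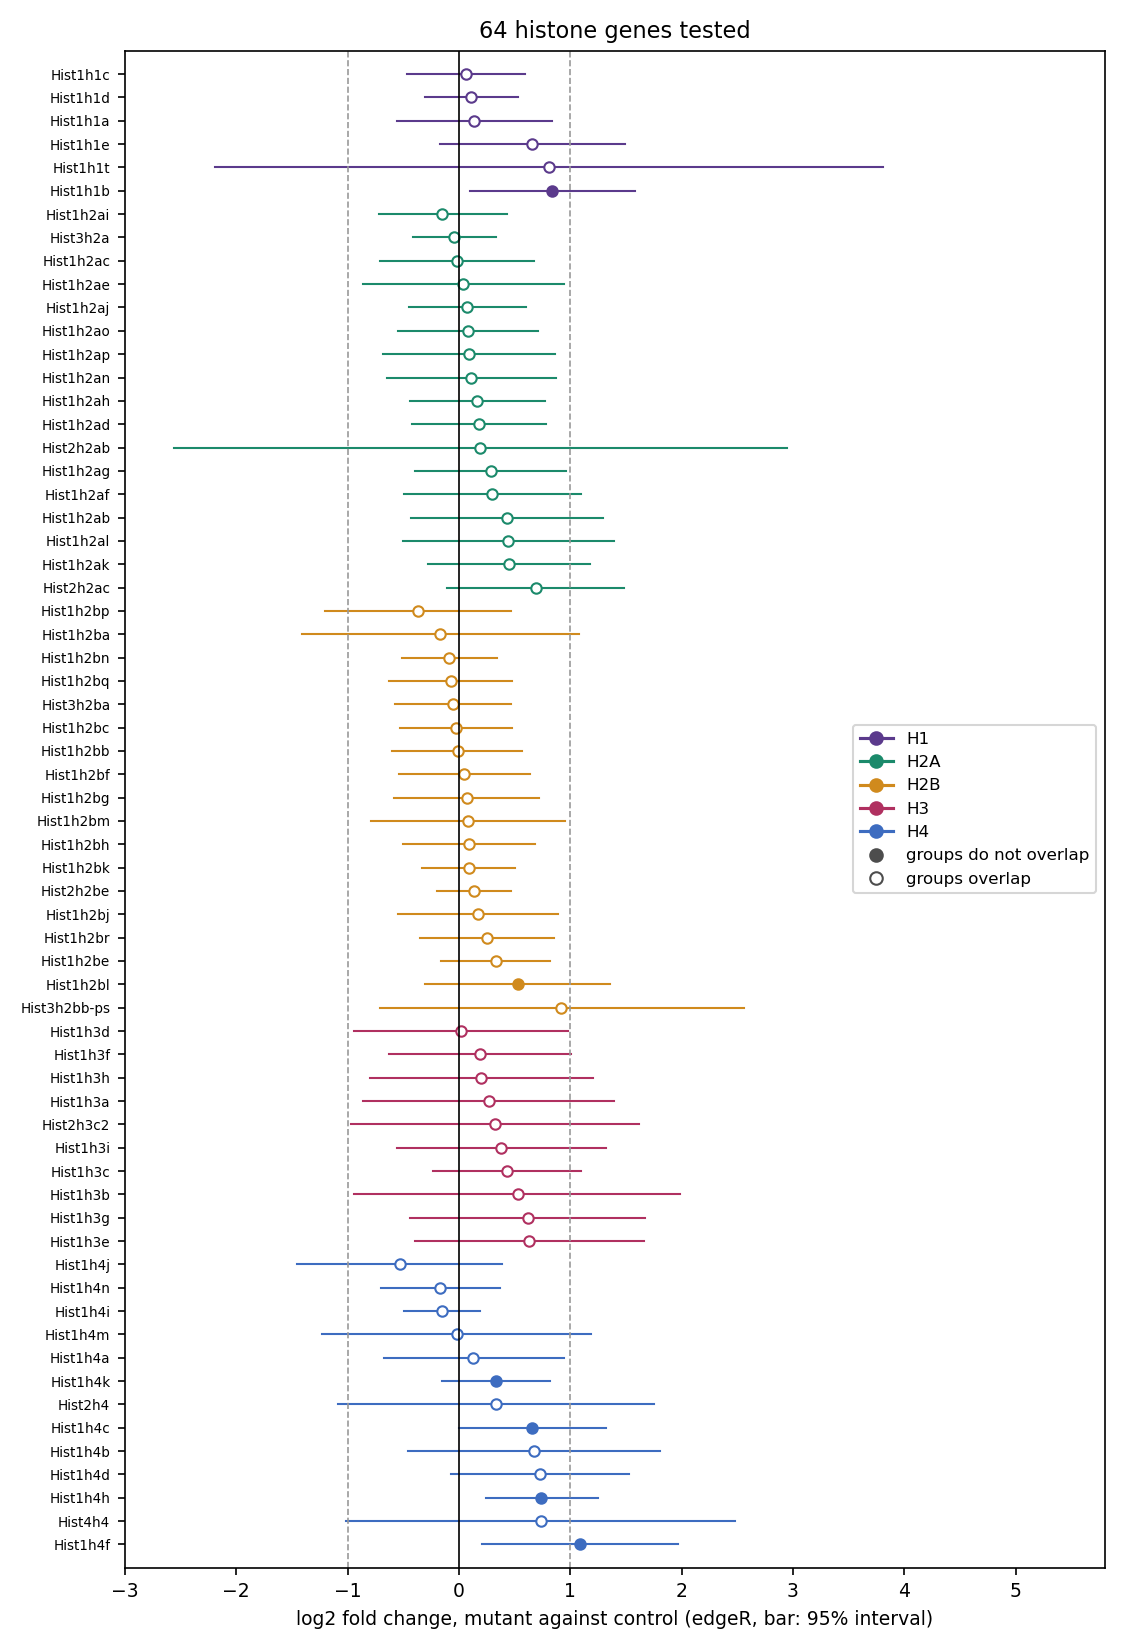
Log2 fold change of mutant against control for the 64 histone genes tested, by class, with bars for the 95% interval from edgeR and dashed lines at -1 and 1. Filled points mark the 6 genes whose groups do not overlap, all of them to the right of 0, and no gene passed the limits.

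The groups did not overlap for 6 of the 64 members, all higher in mutants, where 6.81% of all genes were apart in that direction. For 0 members they were apart in the other direction, where 8.21% of all genes were. Of these 6 members, 4 were H4 genes. By the expected counts 3 of the 6 were still apart, Hist1h1b, Hist1h4h and Hist1h4k, whereas the groups overlapped for Hist1h4f, Hist1h4c and Hist1h2bl. Hist1h4h (chr13:23531050-23531519, plus strand) was at 0.865, 0.860 and 0.969 CPM in controls and at 1.49, 1.25 and 1.78 CPM in mutants. Its log2 fold change was 0.74 with a standard error of 0.21 (edgeR, adjusted p = 0.381). Hist1h4f (chr13:23551258-23551648, minus strand) was at 0.153, 0.154 and 0.268 CPM in controls and at 0.481, 0.394 and 0.368 CPM in mutants, with a log2 fold change of 1.09 and a standard error of 0.37 (edgeR, adjusted p = 0.415). With expected counts it was 0.57 for Hist1h4f and 0.61 for Hist1h4h. Hist1h4c and Hist1h4k had smaller differences of 0.66 and 0.33. Hist1h1b (chr13:21779883-21780625, minus strand), which encodes the linker histone H1.5, was at 0.458, 0.265 and 0.371 CPM in controls and at 0.577, 0.603 and 0.780 CPM in mutants. These H1 and H4 genes, Hist1h1b, Hist1h4f and Hist1h4h, were the 3 with an unadjusted p under 0.05. For Hist1h1b the log2 fold change was 0.84 with a standard error of 0.31 (edgeR, adjusted p = 0.435). The H2B gene Hist1h2bl was the sixth, at 0.206 to 0.407 CPM in controls and 0.409 to 0.520 CPM in mutants, and 85.6% of its words occur in other genes.

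The H4 genes did not all lie on 1 side. Hist1h4i, the H4 gene with the highest level, was at 4.99, 4.35 and 5.44 CPM in controls and at 4.71, 4.22 and 4.42 CPM in mutants, which gave a log2 fold change of -0.15 and a 95% interval from -0.49 to 0.19. Hist1h4j (-0.53) and Hist1h4n (-0.17) were among the 5 lowest fold changes. Of 13 H4 genes, 9 had a fold change above 0 and 4 below.

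Among linker histones all 6 genes had a fold change above 0, with a median of 0.40. Without Hist1h1c, the other 5 H1 genes summed to 3.54, 4.24 and 3.46 CPM in controls and to 5.15, 4.18 and 5.20 CPM in mutants. E433 overlapped the controls, and the exact permutation p was 0.200 (two-sided). By the expected counts the same 5 genes were higher in every mutant, at 3.51 to 4.29 CPM against 2.60 to 3.32 CPM in controls, a log2 difference of 0.48 (exact permutation test, two-sided, p = 0.1, the smallest possible here). Hist1h1e, which encodes H1.4, was at 0.560, 1.30 and 1.05 CPM in controls and 1.73, 1.16 and 1.73 CPM in mutants, with a log2 fold change of 0.66. Hist1h1d, which encodes H1.3, was at 1.48 to 1.92 CPM in controls and 1.74 to 1.93 CPM in mutants.

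Of the 17 H2A genes tested, 14 had a fold change above 0 and none was apart between groups. Hist1h2ao was at 7.38, 13.9 and 14.9 CPM in controls and at 11.6, 13.1 and 13.6 CPM in mutants, and Hist1h2ad at 2.67, 4.48 and 5.21 CPM and at 4.64, 4.87 and 4.53 CPM. E420 was the lowest library for both, as it was for 24 of the 64 members tested. Of 18 H2B genes, 11 had a fold change above 0 and 7 below. Hist2h2be was among the steadiest members, at 4.20, 3.42 and 3.65 CPM in controls and 4.02, 4.11 and 4.27 CPM in mutants. Its log2 fold change was 0.14 with a 95% interval from -0.20 to 0.47. Hist1h2bg was at 2.78 to 4.04 CPM in controls and 2.32 to 4.31 CPM in mutants, and Hist1h2bp had the lowest fold change of the class at -0.37.

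All 10 H3 genes tested had a fold change above 0, from 0.02 for Hist1h3d to 0.63 for Hist1h3e, with no gene apart between groups. Hist2h3c2 was at 0.560, 1.26 and 0.763 CPM in controls and at 1.30, 0.394 and 1.54 CPM in mutants. E433 was below every control while E423 and E440 were above them all. Hist1h3c was at 0.574 to 0.969 CPM in controls and 0.914 to 1.02 CPM in mutants, which gave a log2 fold change of 0.43 and a 95% interval from -0.23 to 1.10.

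Outside the Hist1 and Hist2 clusters, Hist3h2a and Hist3h2ba, an H2A and an H2B gene, were at 3.30 to 3.79 and 2.29 to 3.18 CPM in controls and at 3.01 to 3.85 and 2.28 to 3.34 CPM in mutants. Their log2 fold changes were -0.04 and -0.05. The pseudogene Hist3h2bb-ps was under 0.5 CPM in every library. Hist4h4 was at 0.0254, 0.265 and 0.124 CPM in controls and 0.241, 0.139 and 0.325 CPM in mutants, and the controls spanned most of that range. Of the members known from testis, Hist1h1t had 11 counts over the 6 libraries and Hist1h2ba 28, Hist1h2aa had 0 counts and 0 expected counts, and 3 counts, the limit a count of 0 allows, correspond to at most 0.0763 CPM in a library.

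The comparison was repeated without E434 and E433, the libraries that stand apart in cartilage genes. The controls left, E420 and E435, and the mutants left, E423 and E440, also differed in the marker genes of other tissues given below, whose part was not tested. In that fit of 2 against 2, 4 of 62 members passed the limits, all higher in mutants, against 8.25% of all genes. They were Hist1h1e (log2 fold change 1.08, adjusted p = 0.006), Hist1h4d (1.19, adjusted p = 0.011), Hist2h3c2 (1.09, adjusted p = 0.007) and Hist4h4 (1.82, adjusted p = 0.090). At an unadjusted p under 0.05, 12 members were higher, where 20.3% of all genes were higher. A fold change above 0 was seen for 52 of 62 members, against 49.5% of all genes. Hist1h1c had a log2 fold change of 0.45 there and Hist1h2bc of 0.30, where the fit of all libraries gave 0.06 and -0.03. In the fit of 2 against 2 their adjusted p-values were 9.93e-06 and 0.003 (edgeR), and they missed only the fold limit. The summed level had a log2 difference of 0.32, against 0.10 with all libraries, and the median over members was 0.36. The shares of members called and of members higher at an unadjusted p under 0.05 were close to or under those of all genes.

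Since histone mRNAs mostly lack a poly(A) tail, they were read beside the rRNA share, a check on the mRNA selection, and Mki67, a marker of cycling cells. The rRNA share was 1.47, 1.15 and 0.946% of counts in controls and 2.22, 2.14 and 2.24% in mutants. All mutants were above all controls, by 1.01 percentage points on average (exact permutation test, two-sided, p = 0.1, the smallest that 3 against 3 allows). Most of it lay on the rRNA gene CT010467.1, with 0.749 to 1.15% in controls and 1.93 to 2% in mutants, whereas mitochondrial rRNA, at 0.189 to 0.315% and 0.210 to 0.269%, overlapped. For CT010467.1 the log2 fold change was 1.08 by edgeR (adjusted p = 0.264), which did not call it. DESeq2 did (1.09, adjusted p = 4.77e-07). The share of small nuclear RNA genes, whose transcripts lack a poly(A) tail, was higher in every mutant, at 0.000826 to 0.00119% against 0.000573 to 0.000649% in controls. The groups overlapped for small nucleolar RNA genes, at 0.0027 to 0.00364% in mutants and 0.00241 to 0.00289% in controls, and for the class of miscellaneous RNAs, at 0.00293 to 0.00857% and 0.00282 to 0.00412%. Mki67 was at 185.2, 210.7 and 166.4 CPM in controls and at 180.0, 247.4 and 172.9 CPM in mutants, a log2 fold change of 0.09 (edgeR, adjusted p = 0.863) that turned to -0.08 without E433. The groups overlapped and the highest value was in E433.

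Set side by side, the order of the libraries in the histone sum was not that of either measure. E423 and E440, with the highest rRNA shares (2.22 and 2.24%), had sums of 190.0 and 185.0 CPM. E433, with the highest Mki67 and the lowest rRNA share of the mutants (2.14%), had the lowest histone sum of the mutants. E434, with the second highest Mki67 and an rRNA share of 1.15%, had the highest sum of all. E420 had the highest rRNA share of the controls and the lowest sum. E435, with the lowest rRNA share (0.946%) and the lowest Mki67, had a sum of 168.7 CPM. The members whose groups were apart, all higher in mutants, were picked by that separation. Their direction and size were therefore not set against the rRNA share. Neither the part of the poly(A) selection nor that of proliferation in the histone values was tested.

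**Figure D5:**
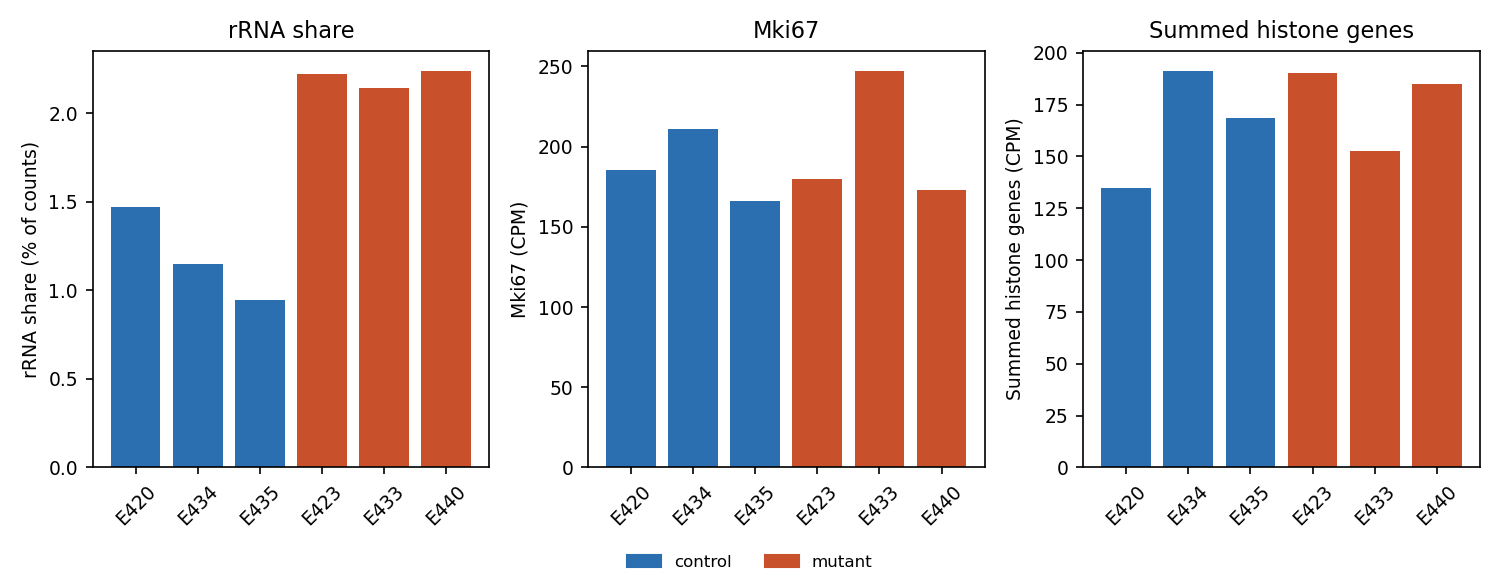
Bars give, for each library, the rRNA share in percent of counts, Mki67 in CPM and the summed CPM of the 70 histone genes, with controls in blue and mutants in orange and each axis starting at 0. The rRNA share separates the groups, whereas Mki67 and the histone sum do not.

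Other RNAs without a poly(A) tail were checked from a list of 10. Of these 6 were tested and 4 (Rmrp, Terc, Rnu7 and Snord118) were at 0, 5 of the 6 had a fold change above 0, and 0 passed the limits. Rn7sk, the 7SK RNA that holds P-TEFb inactive, was at 4.12, 3.88 and 3.38 CPM in controls and 8.90, 5.31 and 6.83 CPM in mutants, a log2 fold change of 0.89 (edgeR, adjusted p = 0.344). DESeq2 gave it an adjusted p of 0.011, with a fold change under the limit. Scarna2 was likewise higher in every mutant. Rn7s1 and Rn7s2, the signal recognition particle RNAs, were highest in E423 (32.6 and 34.7 CPM) but in E433 were below every control.

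Genes listed as replication-independent histones were 11 in number and summed to 1566.6 to 1648.6 CPM in controls and 1584.8 to 1605.1 CPM in mutants. None passed the limits and the median log2 fold change was -0.04. H3f3b, which encodes the replacement histone H3.3, was at 430.5 to 459.1 CPM in controls and 433.7 to 455.7 CPM in mutants. H1f0 was at 281.4 to 324.9 and 300.8 to 308.7 CPM, H3f3a at 235.4 to 266.4 and 238.2 to 268.9 CPM, and H2afz at 179.4 to 211.4 and 187.2 to 203.3 CPM. The exception at an unadjusted p under 0.05 was H2afy2, a macroH2A gene, which was lower in every mutant (log2 fold change -0.47, edgeR, adjusted p = 0.400).

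The machinery that makes and processes histone mRNA gave 0 of 26 genes past the limits, with a median log2 fold change of -0.09. Slbp, the stem-loop binding protein, was at 75.6, 71.4 and 78.2 CPM in controls and at 64.6, 73.9 and 66.0 CPM in mutants, a log2 fold change of -0.14. Npat, which activates histone transcription, was at 39.8, 35.4 and 35.6 CPM in controls and 31.0, 36.0 and 27.3 CPM in mutants. For both, E423 and E440 were below all controls and E433 was within them. Of the list, 20 genes had a fold change below 0 and 6 above, and Cstf2 and Ncbp2 had an unadjusted p under 0.05, both lower. Among 20 histone chaperones and partners, 0 passed the limits, and Asf1b (0.22) and Hjurp (-0.53), the chaperone of the centromeric histone CENP-A, had an unadjusted p under 0.05.

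Genes of DNA replication summed to 1433.7 to 1527.0 CPM in controls and 1351.5 to 1584.6 CPM in mutants. None of the 25 had an unadjusted p under 0.05, and 19 had a fold change below 0. Genes of mitosis, Mki67 among them, likewise had none, with 18 of 20 below 0 and a median of -0.09. For both lists E433 held the highest sum and E423 and E440 the lowest, whereas in the histone sum E433 was below E423 and E440. Pcna, the sliding clamp of replication, was at 169.4, 151.3 and 165.3 CPM in controls and 144.7, 171.9 and 142.9 CPM in mutants.

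Marker genes of other tissues also differed between libraries. The summed level of 10 keratinocyte genes was 5551.1, 20.4 and 6311.0 CPM in controls and 27991.5, 3267.6 and 28061.3 CPM in mutants. The 11 erythroid genes measured summed to 22597.9 to 27803.4 CPM in controls and 9369.9 to 18238.7 CPM in mutants, with 5 lower at an unadjusted p under 0.05. The 10 osteoblast genes summed to 11504.7 to 16626.1 and 7986.3 to 8378.8 CPM, with 9 lower at an unadjusted p under 0.05. The same number were lower in every mutant than in any control. Of the 10, Phex passed the limits in edgeR and 7 passed them in DESeq2. The 12 hepatocyte genes were at 31.9 to 53.9 CPM in controls, and among mutants 675.7 CPM in E433 and 35.1 and 36.7 CPM in the others. Skeletal muscle genes summed to 13923.6 to 23154.1 and 18140.4 to 31765.6 CPM and thymocyte genes to 2.87 to 3.03 and 3.71 to 5.41 CPM. No gene of these lists was at 0 in all libraries, and their part in the histone values was not tested.

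Members also shared features of position and promoter that the choice by name did not use. By the coordinates of the count table, 14 H2A genes faced an H2B gene head to head, with 173 to 306 bases (median 247) between their starts. The levels within a pair could differ: Hist1h2bc was at 19.7 to 32.6 CPM and its neighbour Hist1h2ac at 0.942 to 1.65 CPM. For Hist1h2ap and its neighbour Hist1h2br the values were 7.43 to 19 and 0.680 to 1.15 CPM. Per kilobase of exon these were 23.3 against 0.552 for Hist1h2bc and Hist1h2ac and 30.4 against 0.440 for Hist1h2ap and Hist1h2br. In RefSeq promoters (GRCm38.p6, 250 bases before to 50 after the start, 62 members matched), CCAAT on either strand occurred in 53 of 62 members (85.5%) and in 37.9% of 27025 promoters, and was found in 3 of 12 H4 genes. TATAAA occurred in 56.5% against 14.2%, and the octamer ATTTGCAT in 21% against 1.75%, in 7 of 18 H2A and 6 of 16 H2B genes and in 0 of the others. AAACACA, the letters of the H1 box, occurred in 5 of 6 H1 genes and in 7.14% of all promoters.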

How the data were processed

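Rib cage RNA of 3 control and 3 mutant embryos was sequenced by the authors after poly(A) selection (NEBNext Ultra II Stranded mRNA kit, paired reads of 42 bases). The deposited counts per gene were made by the authors with HISAT2 2.1.0 on GRCm38 and featureCounts 1.6.0, without normalization. By the file header each end was counted on its own, strand was not used and only primary alignments were kept, so a multi-mapping read is counted once and a read over exons of more than 1 gene is not counted, antisense partners included. The deposited expected counts were made by the authors with STAR 2.7.6 and RSEM 1.2.31. The authors' comparison tables hold DESeq2 fold changes and p-values and 12 columns of per-sample values, and none of these was used here.

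Of 55487 gene IDs, 55227 had a symbol in GENCODE vM21, used here in place of vM25, and all 70 members matched the older names in RefSeq. After TMM scaling, each gene with 10 or more counts summed over all samples was tested by the quasi-likelihood method of edgeR 4.0.16 in R 4.3.3, with Benjamini-Hochberg adjustment over all genes. CPM uses the TMM library sizes. Standard errors and 95% intervals follow from the F statistic. Sums and shares were compared by exact permutation tests, two-sided. The scripts were tested on simulated data. Alternatives were DESeq2 1.42.0, its size factors, other filters and limits, expected counts rounded to whole numbers, a cartilage covariate and leaving out libraries. Fitting sums as rows of the table was added after the data were seen. Sums without the highest member of a class were not among the planned results.

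Members and lists were chosen with earlier results of these data known. Genes named were Foxc1, Foxc2, Mki67, the 3 members of each class with the highest mean CPM, the 5 largest and 5 smallest fold changes, members whose groups do not overlap, members outside the main clusters or known from testis, the 3 largest and 3 smallest ratios of expected counts to counts (mean count of at least 20), and list genes, up to 4 a list by level. Others named for 1 result (Hist1h3e, Hist1h4d, Hist1h4b, Hist1h2ac, Hist1h2br, Slbp, Npat, Pcna, Phex, list genes with an unadjusted p under 0.05) were chosen after their values were seen. The embryos are separate samples by their labels, the labels give no litter or batch, and intervals from counts cover the spread between these embryos.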

Additional observations from a re-analysis of the deposited data

Results flagged for a closer look

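A group of 5 histone genes had no counts in any library but had expected counts above the 3 that a count of 0 allows. Summed over the 6 libraries these were 333.0 for Hist2h2aa2, 288.3 for Hist2h2aa1, 27.6 for Hist2h2bb, 21 for Hist2h3b and 11.8 for Hist2h3c1. All 5 lie in the Hist2 cluster on chromosome 3, and 100% of their exon bases are overlapped by exons of other annotated genes, such as Gm20632 for Hist2h2aa2 and Gm20633 and Gm20634 for Hist2h2aa1. Reads over exons of more than 1 gene are not in the counts. None was tested from the counts, and with expected counts their log2 fold changes ran from -0.52 for Hist2h2aa2 to 2.14 for Hist2h3c1, none past the limits. Hist2h3c1 had expected counts only in the control E435 (1.77) and the mutant E440 (10.1). Hist2h2aa2 had 0 in the mutant E433, where Hist2h2aa1, which holds 100% of its words, had 68.9.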

How the results depend on the processing

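The number of histone genes called stayed at 0 in every alternative run except without E434 and E433 together (4 genes). The number of genes called in all, 17, was more sensitive: it ran from 0 to 1087 when 1 library was left out, and was 2066 without E434 and E433, 477 by DESeq2, 256 with the cartilage covariate, 37 with no low-count filter and 10 with expected counts. The median log2 fold change of histone genes, 0.17, was 0.36 without E434 and E433 and 0.36 with expected counts, and ran from 0.12 to 0.29 with 1 library left out. Leaving out 1 library turned the direction of the summed level (-0.04 to 0.22), of H1 (-0.02 to 0.33), of H2A (-0.11 to 0.34), of H2B (-0.09 to 0.18) and of Mki67 (-0.08 to 0.19). It was E420 for the sum, H1 and H2A, and E433 for Mki67. H2B changed sign without E420, E435, E423 or E440. H3 (0.09 to 0.52), H4 (0.09 to 0.25) and the rRNA share (0.89 to 1.15 percentage points) kept theirs. Of 128 values of the comparisons under alternatives, 107 were counted as kept. For sums and the rRNA share by the exact test this meant the direction alone. That test cannot go below 0.1, so no call could be gained or lost. For the median it meant a shift under 0.14, the SD between library medians. For numbers of genes called it meant an equal or close number, and for Mki67 the same direction and call. Of 34 named genes, 14 changed sign in at least 1 alternative. The cause of these changes was not tested. No paired analysis was possible because the labels give no litter and no replicate number that the groups share. At 0.014 to 0.0185% of counts, single members of low level are measured by few reads.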
